A study of Mus musculus with 6 samples.

Results

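The subject here is a small population of blood endothelial cells in mouse skin that carry RNA of Selp, Sele and Ackr1, the genes that mark the postcapillary venule. They were 237 cells among the 48101 barcodes of 6 single-cell RNA libraries, made with the 5' HT v2 kit of 10x Genomics, in which cells are caught in droplets and each captured RNA molecule is counted as 1 UMI. All 237 came from the 3 libraries of live cells sorted as CD45-negative, which held 28449 barcodes, of which 23796 were kept at 500 UMIs or more, 300 genes or more and at most 10% mitochondrial UMIs. A kept cell counted as blood endothelial with at least 2 UMIs of Pecam1, Cdh5, Flt1 and Emcn together, fewer than 3 UMIs of the lymphatic genes Prox1, Mmrn1, Lyve1 and Flt4 together, and under 0.5% of its UMIs from Krt5 and Krt14. It counted as venular with at least 2 UMIs of Selp, Sele and Ackr1 together. The values that chose the cells are therefore the UMIs of these genes in each cell, and the levels of Selp, Sele and Ackr1 below describe the choice and test nothing.

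The skin came from untreated female mice of 17 to 18 weeks, all labelled C57/BL6, with the layer under the dermis removed. The 3 groups were wild type, mice with a deletion of an upstream enhancer of Il2ra (UP_Del) that showed no alopecia, and UP_Del mice with alopecia, which is hair loss. Both UP_Del groups carry the deletion. Il2ra encodes the alpha chain of the interleukin 2 receptor. Each group gave 1 CD45-negative and 1 CD45-positive library, and the number of mice behind a library is not given in the sources used here. With 1 library per group there is no replicate check, so no p-value is given, and a difference between libraries cannot be told apart from a difference between groups. Intervals are 95% intervals and cover counting error only.

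Leukocytes leave the blood mainly through venules. P-selectin, the product of Selp, is stored in Weibel-Palade bodies and moved to the surface within minutes, while E-selectin, the product of Sele, is made anew after cytokines such as TNF and interleukin 1 act through NF-kB. Both catch rolling leukocytes, Icam1 and Vcam1 encode ligands of the integrins that arrest them, and Ackr1 encodes an atypical receptor that carries chemokines across the venular wall without signalling through G proteins.

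Selp and Sele lie side by side on chromosome 1 (GRCm38), Sele at chr1:164048234-164057677 and Selp at chr1:164115264-164150026, both on the plus strand with starts 67 kb apart. Ackr1 is on the minus strand of the same chromosome at chr1:173331886-173333750, with its start 9218 kb from that of Selp. Lrg1, which encodes a secreted leucine-rich glycoprotein and was not part of the rule, is on the minus strand at chr17:56119678-56122001. The sequences before the starts of Selp, Sele and Lrg1 are shown because these genes carry the description of the cells and because NF-kB target genes are compared in the cells below. They are from RefSeq for GRCm38.p6, written 5′ to 3′ in the direction of the gene, 250 bases for Selp and Sele and, with annotated exon left out, 195 bases for Lrg1. Capitals mark letters found by search, on either strand, of the NF-kB-like motif GGNNNTTCC and of TATAAA.
Selp, chr1:164115014-164115263, plus strand: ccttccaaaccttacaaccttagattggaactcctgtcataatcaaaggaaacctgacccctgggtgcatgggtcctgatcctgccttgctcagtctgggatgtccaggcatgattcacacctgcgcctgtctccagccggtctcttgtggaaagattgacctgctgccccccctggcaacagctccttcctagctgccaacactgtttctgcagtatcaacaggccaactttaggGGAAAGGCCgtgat
Sele, chr1:164047984-164048233, plus strand: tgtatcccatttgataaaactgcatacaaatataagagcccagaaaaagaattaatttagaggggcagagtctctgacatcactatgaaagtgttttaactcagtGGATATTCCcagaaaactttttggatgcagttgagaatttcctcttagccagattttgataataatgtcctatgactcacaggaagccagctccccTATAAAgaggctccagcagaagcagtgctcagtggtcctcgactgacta
Lrg1, chr17:56122002-56122196, minus strand: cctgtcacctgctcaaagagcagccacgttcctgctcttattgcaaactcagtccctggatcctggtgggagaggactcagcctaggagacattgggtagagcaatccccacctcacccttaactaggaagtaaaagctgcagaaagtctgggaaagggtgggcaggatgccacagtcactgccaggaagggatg
The Sele sequence holds GGATATTCC on the plus strand 145 bases before the start and TATAAA 49 bases before it. The Selp sequence holds GGAAAGGCC, a match of GGNNNTTCC on the minus strand, 14 bases before the start. The 250 bases before Lrg1 and Ackr1 also hold matches of it, 33 and 131 bases before the start. Both lie in annotated exon and are not printed. Such matches are common. Of 32851 windows of the same kind in the table, 15.7% held GGNNNTTCC, 15.2% held the form with 1 more free base, 24.9% held either, and 12.4% held TATAAA. A match describes the letters and is not a measured binding site.

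The cells were 16 of 3354 kept cells in the wild-type library, 182 of 15484 in the library without alopecia and 39 of 4958 in the library with alopecia. They had a median of 6831.5, 5415 and 7760 UMIs in that order, and together 109963, 1086916 and 321914 UMIs. The wild-type sum is the smallest, so the wild-type values are the least precise. The filter had removed 26.7%, 7.56% and 30.4% of the barcodes of the 3 CD45-negative libraries, whose total counts were 25735064, 116334373 and 41014981 UMIs. A median of 34.5, 30 and 47 UMIs per cell came from 15 general endothelial genes that the rule did not use, and 1 of the 237 cells had fewer than 3. Neither Il2ra nor Ptprc, which encodes CD45, had a UMI in any of the cells, which allows up to 27.3, 2.76 and 9.32 CPM (3 counts of each total).

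Levels are UMIs summed over the cells of a library and given as counts per 1000000 UMIs (CPM). In wild type, Selp was at 2492 CPM (2205 to 2805). Without alopecia it was at 3435 CPM (3326 to 3547), and with alopecia at 3259 CPM (3064 to 3462). It had UMIs in 15 of 16, 168 of 182 and 36 of 39 cells, and single cells reached 8443, 18204 and 20492 CPM. The library with alopecia had the lowest median cell, at 1200 CPM against 1659 in wild type and 2105 without alopecia, and 1 cell held 23.4%, 4.34% and 13.3% of the Selp UMIs in wild type, without and with alopecia. Sele was at 573 CPM (440 to 733), 925 CPM (868 to 984) and 966 CPM (862 to 1080), with UMIs in 11, 149 and 31 cells. Ackr1 was at 1009 CPM (830 to 1216), 1458 CPM (1387 to 1532) and 1006 CPM (899.9 to 1122), highest in the library without alopecia and alike in the other 2. Lrg1, which the rule did not use, was highest in wild type, at 2828 CPM (2523 to 3161), against 1563 CPM (1490 to 1639) without and 2041 CPM (1888 to 2203) with alopecia.

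**Figure D1:**
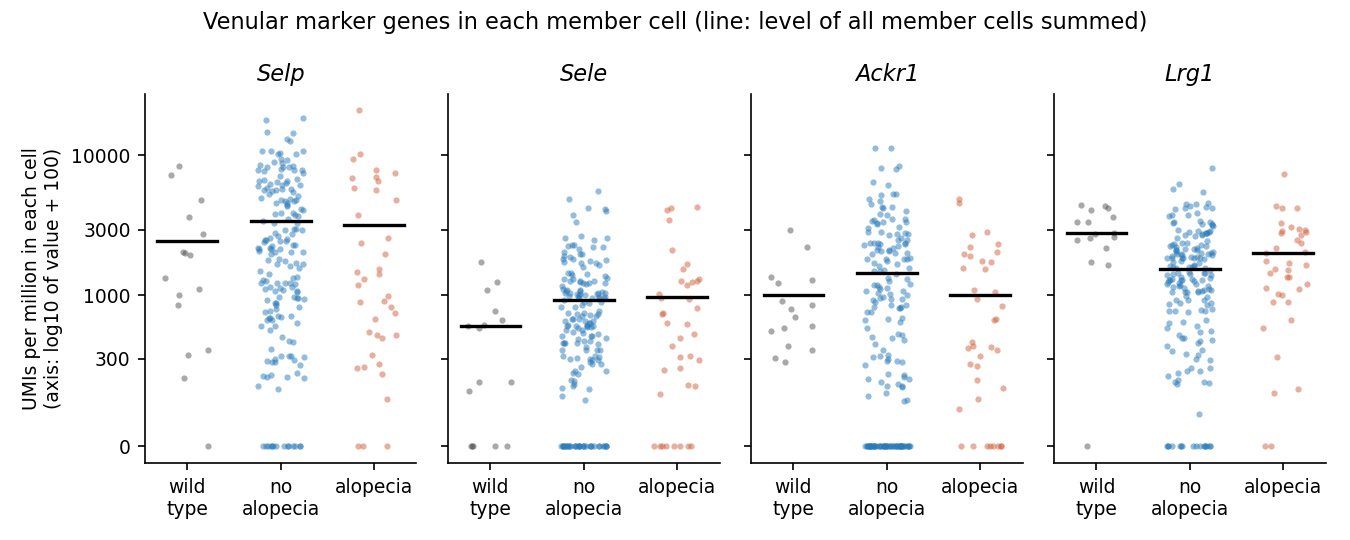
Selp, Sele, Ackr1 and Lrg1 in each venular cell of the 3 CD45-negative libraries, as CPM of the cell on a log axis of the value plus 100. Each point is a cell and each line is the level of all cells of the library summed, such as 2492, 3435 and 3259 CPM for Selp in wild type, without and with alopecia.

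Deeper cells show more genes, so shares of cells with a UMI were compared after each cell was thinned to 1000 UMIs. Selp was then seen in 11 of 16 cells (68.8%) in wild type, 132 of 181 (72.9%) without alopecia and 24 of 39 (61.5%) with alopecia, with overlapping intervals. In keratinocytes of the same libraries, thinned alike, it was seen in 0 of 76, 0 of 1684 and 0 of 238 cells, which allows shares of up to 3.95%, 0.178% and 1.26%. Lrg1 was seen in 15 of 16 (93.8%), 123 of 181 (68.0%) and 29 of 39 cells (74.4%). Icam1 was seen in 37.5%, 49.7% and 33.3% of the venular cells but also in 11.8%, 16.0% and 6.30% of the keratinocytes, so part of its share can be background. Il6, which encodes interleukin 6, was seen in 31.2%, 35.9% and 33.3% of the venular cells, against at most 0.48% of the keratinocytes of a library.

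Most cells carried all 3 marker genes, namely 11 of 16 in wild type, 102 of 182 without alopecia and 25 of 39 with alopecia. Cells with Selp and Sele and no Ackr1 numbered 0, 37 and 5, and cells with Selp and Ackr1 and no Sele numbered 4, 22 and 4. Selp alone was seen in 0, 7 and 2 cells, Sele alone in 0, 7 and 1, and Ackr1 alone in 1, 4 and 2. Across cells, the CPM of Selp and Sele had Spearman's rho of 0.43, 0.55 and 0.33 over 16, 182 and 39 cells, those of Selp and Ackr1 0.27, 0.30 and 0.53, and those of Sele and Ackr1 0.14, 0.09 and 0.14. These are descriptions, since the cells of a library share depth and source and were chosen on the sum of the 3 genes.

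The sum of the 3 marker genes was 10 UMIs or more in 11 of 16, 135 of 182 and 31 of 39 cells, and exactly 2, the threshold, in 1, 11 and 3. Cells just inside, at 2 or 3 UMIs, numbered 2, 17 and 3 and had Lrg1 at 966, 543 and 953 CPM. Cells just outside, at 1 UMI, numbered 3, 13 and 5 and had Lrg1 at 229, 423 and 1991 CPM. The remaining blood endothelial cells, at 0 UMIs, had Lrg1 at 265, 99.0 and 262 CPM, and the venular cells as a whole 2828, 1563 and 2041 CPM. The few cells at the edge were thus below the whole on Lrg1 in each library, though the 5 cells at 1 UMI with alopecia were near it.

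The name given to the cells was checked with genes outside the rule by setting them against the 1088 blood endothelial cells with no UMI of the marker genes (212, 590 and 286 per library). Since the cells were chosen on RNA, this too is a description. Of 6679 genes with at least 20 UMIs over both sides in every library, 89 (1.33%) were at least 2-fold higher in the venular cells in all 3 libraries and 174 (2.61%) at least 2-fold lower. The genes that led the higher side were Nt5e, Lbp, Cadm3, Ehd3, Sectm1a, Lrg1, Nr2f2, Pgm5, Mras, Tll1, Il1r1 and Aqp1. Nt5e, which encodes the ectoenzyme CD73, was at 336 against 7.32 CPM in wild type, 248 against 7.75 CPM without alopecia and 224 against 8.49 CPM with alopecia. Lbp, which encodes lipopolysaccharide-binding protein, was at 627 against 23.01, 318 against 19.6 and 304 against 6.94 CPM. Nr2f2, which encodes COUP-TFII, the transcription factor of venous identity, was 7.61-fold, 7.62-fold and 9.16-fold higher. Il1r1, the receptor of interleukin 1, was 6.76-fold, 6.65-fold and 10.5-fold higher, and the water channel gene Aqp1 6.52-fold, 13.2-fold and 7.16-fold. Cadm3 overlaps Ackr1 by 493 bases on the same strand, so reads of the 2 genes may be mixed. Gm16587, an antisense gene inside Selp, had 173, 278 and 317 CPM in the venular cells and cannot be told apart from Selp unless the counting used strand.

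The lower side was led by Cldn5 and genes of the capillary wall such as Gpihbp1. Cldn5, which encodes the tight-junction protein claudin 5, was at 0 against 515 CPM in wild type, 58.9 against 946 CPM without alopecia and 9.32 against 616 CPM with alopecia. With 0 UMIs in the wild-type venular cells the ratio there is at least 18.9-fold, taken against a floor of 3 UMIs over the group. Gpihbp1, which carries lipoprotein lipase across the capillary wall, was at 9.09 against 530, 25.8 against 223 and 37.3 against 720 CPM. Rbp7, Ccdc85a, Mcf2l, Timp4, Rsad2, Sema3g, Notch4, Ckb, Stmn1 and Fn1 completed this side. Plvap, which forms the diaphragms of fenestrae and caveolae, went the other way, at 2792 against 1088, 3344 against 1079 and 2709 against 1422 CPM.

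**Figure D2:**
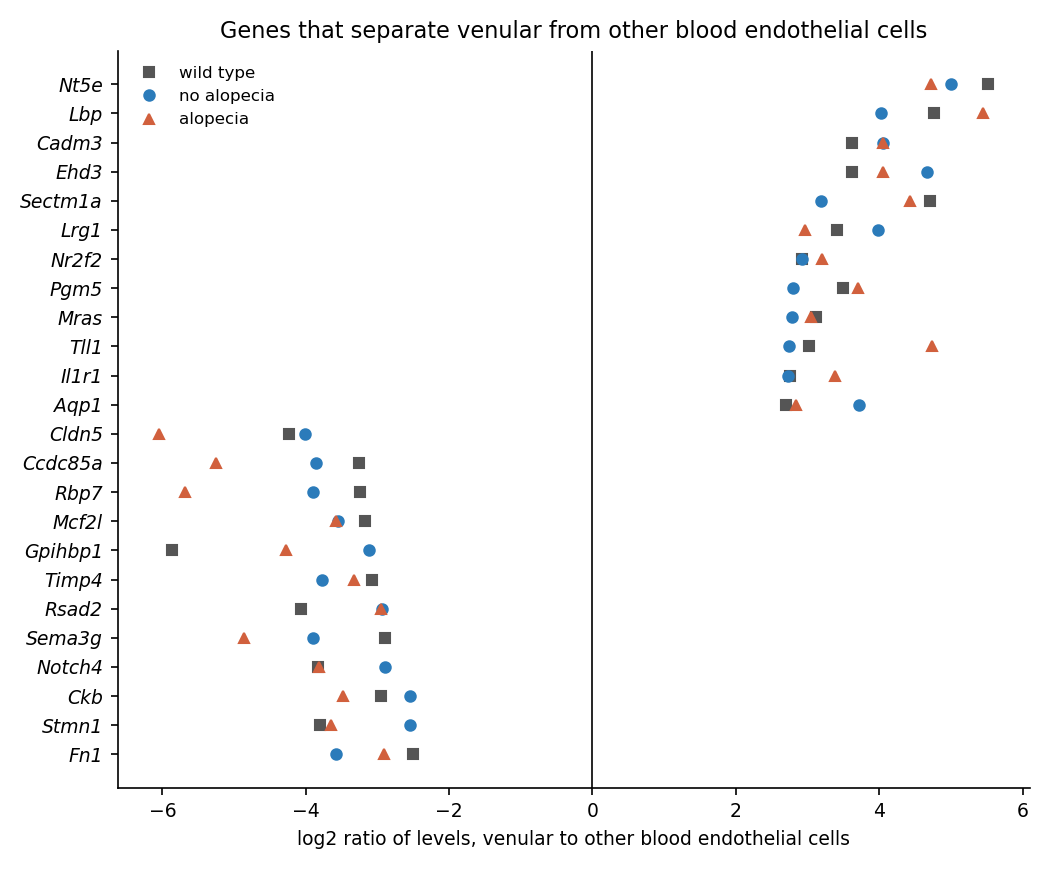
Ratio of venular cells to blood endothelial cells without a marker UMI, on a log2 axis, for the 12 genes named on each side, with a point for each of the 3 CD45-negative libraries. Genes with 0 UMIs on the venular side are drawn at the floor of 3 UMIs (Cldn5, Rbp7, Mcf2l and Sema3g in wild type and Stmn1 with alopecia). All 3 points of a gene lie on the same side of 0 because the genes were chosen that way.

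By lists, at least 1.5-fold counts as higher or lower, and a median is the median log2 ratio of the list's genes with at least 20 UMIs over both sides. Of the venular genes that the rule did not use, 18 of 21, 19 of 24 and 18 of 22 were higher in wild type, without alopecia and with alopecia, where 13.0%, 7.69% and 11.9% of all genes were. Arterial genes were lower in 8 of 12, 11 of 14 and 11 of 13, and capillary genes in 8 of 13, 7 of 13 and 9 of 13, where 34.2%, 25.4% and 35.2% of all genes were. The median of the arterial list was -1.38, -2.20 and -1.88, beside an all-gene median of -0.25, -0.19 and -0.30. Of 8 lymphatic genes outside the rule, 4, 2 and 2 were at 0 in the venular cells, Ccl21a and Nr2f1 in each library. The list summed to 518, 736 and 509 CPM in the venular cells against 291, 468 and 243 CPM in the others, and 8 of 16, 103 of 182 and 20 of 39 venular cells had 3 or more of its UMIs. Thy1, a surface glycoprotein gene that other cell types also express, gave 44 of 57, 649 of 800 and 124 of 164 of these UMIs.

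The same shares of all genes, 34.2%, 25.4% and 35.2% lower and 13.0%, 7.69% and 11.9% higher, stand behind the inflammatory lists. Type I interferon response genes were lower in the venular cells in 11 of 22 genes in wild type, 18 of 23 without alopecia and 5 of 22 with alopecia, where 3 were higher. The count without alopecia was the farthest from its all-gene share. Interferon gamma response genes were lower in 12 of 26, 11 of 27 and 4 of 27, and higher in 0, 0 and 8. The median of the NF-kB list was -0.09, -0.04 and 0.71. In the library with alopecia, 12 of 23 NF-kB response genes were thus higher in venular cells than in the other blood endothelial cells, against 6 of 21 in wild type and 3 of 24 without alopecia. This was not particular to NF-kB genes. Immediate early and dissociation genes were higher in 2 of 30, 1 of 30 and 13 of 30, with medians of -0.24, -0.08 and 0.43. JAK, STAT and SOCS genes were higher in 3 of 17, 2 of 20 and 10 of 20. The differences between these medians were not tested.

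Of the kept wild-type cells, 0.477% (0.273 to 0.774) were venular, against 1.18% (1.01 to 1.36) without and 0.787% (0.560 to 1.07) with alopecia. Among blood endothelial cells they were 16 of 231, or 6.93% (4.01 to 11), 182 of 785, or 23.2% (20.3 to 26.3), and 39 of 330, or 11.8% (8.54 to 15.8). The library without alopecia was highest on both measures. Cells that met the rule in the CD45-positive libraries, 7 in wild type, 2 without and 15 with alopecia, are not in these shares. The share of blood endothelial cells was 0.510-fold (0.351 to 0.724) with against without alopecia, 1.71-fold (0.932 to 3.27) with alopecia against wild type and 3.35-fold (2.01 to 5.98) without alopecia against wild type. Blood endothelial cells themselves were 6.89%, 5.07% and 6.66% of the kept cells, so the order of the venular shares is not that of the endothelium. The rule counts UMIs and the libraries differ in Selp, Sele and Ackr1, so more venular cells and more marker RNA per cell cannot be told apart. With each cell thinned to 1500 UMIs before the rule was applied, the order of the 3 libraries was the same.

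**Figure D3:**
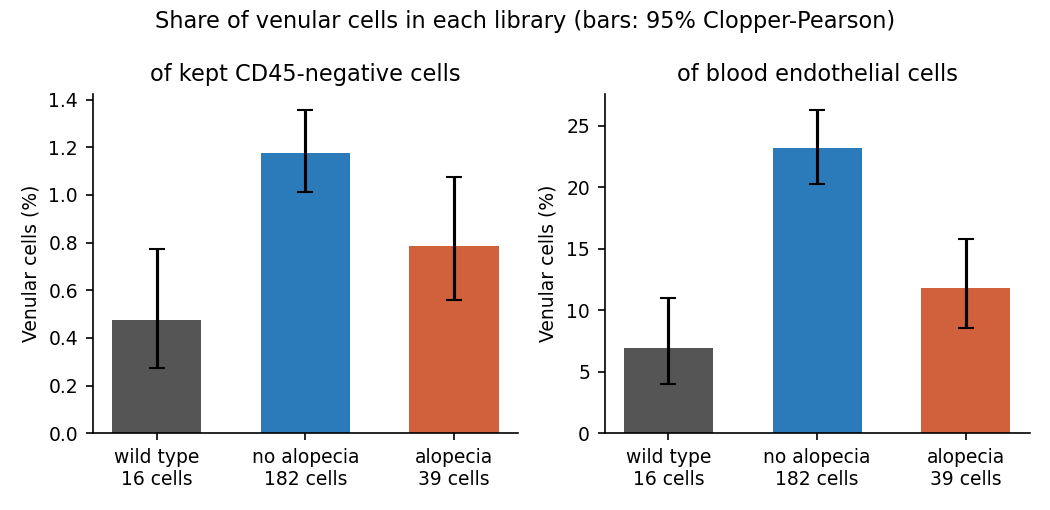
Venular cells as a percent of kept CD45-negative cells (left) and of blood endothelial cells (right) in the 3 CD45-negative libraries, with exact 95% binomial intervals for counting error. The library without alopecia is highest in both, at 1.18% and 23.2%.

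RNA of other cell types differed between the libraries. Keratinocyte markers summed to 72.8, 2059 and 1215 CPM in wild type, without and with alopecia, with 8, 1 and 2 of the 12 genes at 0, and 63.4% of the UMIs with alopecia lay in 1 cell. Fibroblast markers summed to 2337, 1166 and 1093 CPM, with 2, 0 and 0 of 10 genes at 0 and 99.2%, 38.8% and 94.6% of the UMIs in 1 cell. Mural markers summed to 864, 738 and 705 CPM, with 8, 2 and 9 of 11 genes at 0, Kcnj8 and Higd1b among them in each library. Leukocyte markers gave 1, 11 and 0 UMIs, with 11, 6 and 12 of 12 genes at 0. No cell was removed for this. The ratios below were also taken over the 14, 152 and 32 cells with fewer than 3 UMIs of each of these lists, with the mural gene Tagln, which gave most mural UMIs, not counted; this alternative was chosen after seeing the data. The part of these markers in the results was otherwise not tested. No barcode of a venular cell was shared between the CD45-negative libraries, which share 314 barcodes in all, and 4 also occurred in a CD45-positive library, 2 of them in that of the same group.

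Between UP_Del mice with and without alopecia, 7048 genes had at least 20 UMIs over both sums. Of these, 318 (4.51%) were at least 2-fold higher and 461 (6.54%) at least 2-fold lower with alopecia, and the all-gene median log2 ratio was -0.03. At a summed count of 1 the numbers were 4186 and 930, so which direction held more genes depended on the minimum. Among the genes that led the higher side were Zbtb16, Fkbp5, Jarid2, Doc2b, Celf2, Fgfr1, Rtl8a, Fam107a and Lars2. The 10 that led the lower side were Sfn, Sdc4, Hmox1, Cxcl1, Csf3, Ly6c2, Marcksl1, Cldn5, Itpkc and Mgst3.

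Zbtb16 and Fkbp5 are both known targets of the glucocorticoid receptor, Zbtb16 encoding a zinc-finger transcription factor and Fkbp5 a co-chaperone of the receptor itself. Zbtb16 was at 311 CPM with alopecia, 61.6 CPM without and 136 CPM in wild type, a log2 ratio of 2.33 (1.87 to 2.80) with against without alopecia. Fkbp5 was at 245 CPM with alopecia, 63.5 CPM without and 264 CPM in wild type, a log2 ratio of 1.95 (1.47 to 2.44). Wild type was thus at the level of the library with alopecia for Fkbp5, and the library without alopecia stood apart. The same ratios in the other blood endothelial cells were 2.36 and 2.54, so neither difference was limited to the venule. Tsc22d3, another gene that glucocorticoids induce, was at 379 CPM with and 163 CPM without alopecia (1.22), and Foxo3 at 109 and 44.2 CPM (1.30). Of the 15 measured genes of the glucocorticoid and FOXO list, 5 were at least 1.5-fold higher and 4 lower, with a median of -0.23, where 13.8% and 16.5% of all genes were. The 4 lower genes were Sgk1 (-0.86), the metallothionein genes Mt1 (-0.62) and Mt2 (-0.87), and Errfi1 (-0.79), so the list did not move as a whole.

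Other genes higher with alopecia had uneven support. Fgfr1, a fibroblast growth factor receptor gene, was at 127 against 35.9 CPM (1.83, but 0.33 with the rule applied to cells thinned to 1500 UMIs), and Rtl8a at 230 against 74.5 CPM (1.63). Jarid2, which encodes a cofactor of Polycomb repression, was at 1090 against 389 CPM (1.49), with 31.3% of the UMIs with alopecia in 1 cell, and its ratio was 0.94 without the cells that carried other markers. Celf2, an RNA-binding protein gene, was at 252 against 81.9 CPM (1.62), but 77.8% of its UMIs with alopecia came from 1 cell, and without the cells with other markers the ratio was -0.08. Lars2, the mitochondrial leucyl-tRNA synthetase gene, was at 5728 against 2647 CPM (1.11). Over all other kept cells of the 2 libraries the Lars2 ratio was 1.07, so it differed across the whole library.

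Cxcl1 and Csf3, both of neutrophil recruitment, were lower with alopecia. Cxcl1, a chemokine that attracts neutrophils, was at 171 CPM with alopecia, 587 CPM without and 709 CPM in wild type, with UMIs in 13, 72 and 6 cells, a log2 ratio of -1.78 (-2.21 to -1.38) with against without alopecia. Of the wild-type Cxcl1 UMIs, 69.2% lay in 1 cell. Csf3, which encodes the neutrophil growth factor G-CSF, was at 606, 1645 and 418 CPM, with UMIs in 10, 67 and 4 cells, a log2 ratio of -1.44 (-1.66 to -1.23), or -2.75 with cells of 3 or more mural, fibroblast or leukocyte UMIs left out. In the other blood endothelial cells the ratios of Cxcl1 and Csf3 were -1.93 and -3.74, so both were lower there too. Hmox1, which encodes heme oxygenase 1, was at 24.9 against 142 CPM (-2.51), in 6 and 45 cells, and 32.5% of its UMIs without alopecia lay in 1 cell. Sfn, a keratinocyte gene, was at 18.6 against 257 CPM (-3.78), with 45.2% of the UMIs without alopecia in 1 cell, and at -0.48 without the cells with other markers. Sdc4, a syndecan gene, was at 15.5 against 138 CPM (-3.15), and without those cells it had 3 and 4 UMIs. Marcksl1 and Cldn5 rested on 2 and 3 UMIs with alopecia, with log2 ratios of -3.10 (-6.18 to -1.18) and -2.66 (-4.97 to -1.05).

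**Figure D4:**
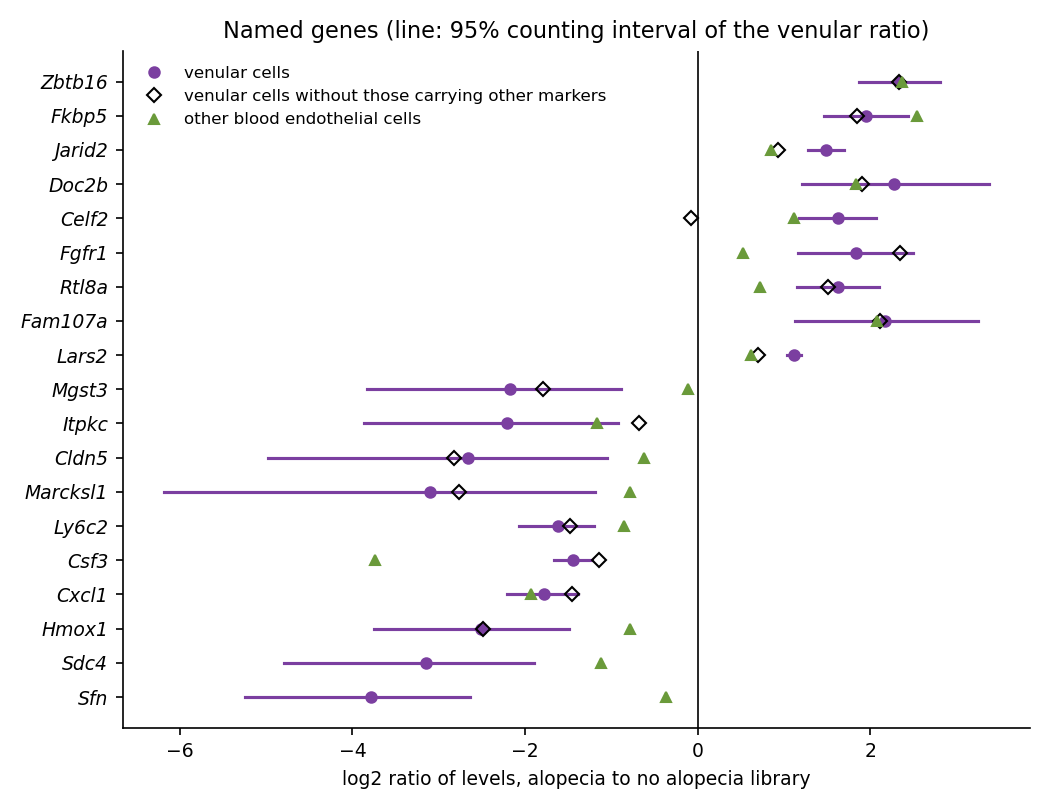
Log2 ratio of venular cells with against without alopecia for the named genes, with exact 95% intervals for counting error. Diamonds leave out cells that carry markers of other cell types and triangles are other blood endothelial cells, both drawn only at 20 UMIs or more; the diamond of Celf2 lies at -0.08 against 1.62 in all venular cells.

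Among adhesion genes Icam1 was lower with alopecia. The log2 ratios with against without alopecia of Selp, Sele and Ackr1 themselves, which the rule used, were -0.08, 0.06 and -0.53. Icam1 was at 457 CPM with alopecia, 969 CPM without and 700 CPM in wild type, in 31, 168 and 10 cells, a log2 ratio of -1.09 (-1.34 to -0.83) with against without alopecia, and -0.85 in the other blood endothelial cells. Vcam1 was near the limit of detection, at 24.9, 35.0 and 9.09 CPM from 8, 38 and 1 UMIs. Of the 17 measured genes of the leukocyte adhesion list, 1 was higher and 4 lower, with a median of -0.15, where 13.8% and 16.5% of all genes were, so neither count was far from the share of all genes. The junction protein gene F11r (174 against 264 CPM, -0.60) was among the lower, and Mcam (87.0 against 52.4 CPM, 0.73) was the higher. Of 6 measured genes that build selectin ligands, 1 was higher, B4galt1 (199 against 97.5 CPM, 1.04). Of 9 measured chemokine genes 2 were higher and 3 lower, but 97.3% of the Ccl2 UMIs without alopecia and 66.0% of the Cxcl10 UMIs with alopecia lay in 1 cell. Cytokine receptor genes had a median of -0.06, with 2 of 19 higher and none lower. Il2rg, which encodes the common gamma chain, was at 183 with and 156 CPM without alopecia (0.23).

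NF-kB response genes, the targets of the pathway that TNF and interleukin 1 use, were lower with alopecia in 8 of 21 and higher in 2, with a median of -0.32. Of all genes in venular cells, 16.5% were lower and 13.8% higher. Nfkbia, which encodes the inhibitor of NF-kB and is itself a target, was at 4200 CPM with alopecia, 5227 CPM without and 3501 CPM in wild type (-0.32 with against without alopecia). Ier3 was at 1839, 3074 and 2992 CPM (-0.74), and Tnfaip3, which encodes the deubiquitinase A20, at 90.1, 153 and 36.4 CPM (-0.76). Bcl3 (-0.92), Tnip1 (-0.96), Relb (-0.83) and Gadd45b (-1.02) were also lower, while Birc2 (1.32) and Ripk2 (1.30) were higher. In the other blood endothelial cells the list was lower in 17 of 25 and higher in none, with a median of -0.77, where 9.67% of all genes were lower and 17.6% higher. Over all other kept CD45-negative cells its median was -0.92, beside an all-gene median of 0.22. The list was thus lower across the whole library and not only in endothelium. Immediate early genes, which digestion of the tissue can also induce, had a median of -0.30 in venular cells and -0.85 in the other blood endothelial cells. Their median was -0.86 over all other kept CD45-negative cells. In venular cells 4 of 30 were lower, which is near the share of all genes, and in the other blood endothelial cells 18 of 30. The part of tissue digestion in these values was not tested.

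The type I interferon list stood the other way round in the venular cells, and the interferon gamma list was near level. Type I interferon response genes had a median of 0.46 with against without alopecia, with 8 of 18 higher and none lower, where 13.8% and 16.5% of all genes were, while in the other blood endothelial cells 11 of 24 were lower, 1 was higher and the median was -0.45. The higher genes were Isg15, Trim30a, Ifit1, Ifit3, Usp18, Ifi44, Ddx58 and Ifih1. Isg15, a ubiquitin-like protein gene, was at 379 CPM with alopecia, 252 CPM without and 282 CPM in wild type (0.59), with 48.4% of the UMIs with alopecia in 1 cell. Trim30a was at 183, 88.3 and 100 CPM (1.05, 0.56 to 1.54), in 22, 62 and 10 cells. Without the cells with other markers the median was 0.70 and 9 of 16 were higher. It was -0.16 when cells with 3 or more UMIs of mural (Tagln included), fibroblast or leukocyte markers were left out, which keeps 9, 103 and 18 cells, so the result depended on which cells were kept. Among 27 interferon gamma response genes 5 were higher and 1 lower, with a median of 0.05, against 0 higher and 18 lower of 27 and a median of -0.70 in the others. Gbp4, a guanylate-binding protein gene, was at 180 against 111 CPM (0.69), and Cd274, which encodes PD-L1, at 59.0 against 35.0 CPM (0.76). MHC class I genes had a median of 0.02, with 1 of 18 higher and 1 lower, H2-K1 being at 1687 against 1632 CPM and B2m at 1457 against 1439 CPM. Cd74, the invariant chain of MHC class II, was at 65.2 CPM in 7 of 39 cells with alopecia and 6.44 CPM in 6 of 182 without. With alopecia against wild type its log2 ratio was -0.16, so it was not higher than in wild type.

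Barrier and hemostasis genes differed gene by gene. Of all genes, 13.8% were higher and 16.5% lower with alopecia in venular cells, and 17.6% and 9.67% in the other blood endothelial cells. The hemostasis and junction counts in venular cells were not far from these shares. Of 13 measured genes of hemostasis and Weibel-Palade bodies 3 were higher and 2 lower with alopecia, with a median of 0.27, against 1 higher and 6 lower of 17 and a median of -0.39 in the other blood endothelial cells. Vwf, whose product fills the Weibel-Palade bodies, was at 814 CPM with alopecia, 698 CPM without and 928 CPM in wild type (0.22). Thrombomodulin, from Thbd, was at 301 against 201 CPM (0.59), Mmrn2 at 544 against 361 CPM (0.59), and Procr, the protein C receptor gene, at 171 against 265 CPM (-0.63). Junction and permeability genes had a median of 0.02, with 3 of 19 higher and 4 lower, among them Ptprb, the vascular phosphatase VE-PTP (742 against 453 CPM, 0.71). VEGF and Notch genes had a median of 0.02, with none of 16 higher and 3 lower. Kdr, the main VEGF receptor gene, was at 93.2 against 196 CPM (-1.07) and had a ratio of 0.37 in the other blood endothelial cells. Capillary genes had a median of -0.10 with 2 of 10 higher and 4 lower, against 9 of 13 higher and a median of 1.20 in the others. Basement membrane and matrix genes had a median of 0.38 in both, with 7 of 19 higher and 1 lower in venular cells, but of -0.08 with the rule applied to thinned cells. Col4a1 was at 342 against 210 CPM (0.70) and Nid1 at 99.4 against 58.0 CPM (0.78), while Igfbp3 had 59.3% of its UMIs with alopecia in 1 cell. Venular genes outside the rule had a median of 0.16, with Tll1 (267 against 165 CPM, 0.70) and 1 other of 22 higher and Icam1 alone lower.

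**Figure D5:**
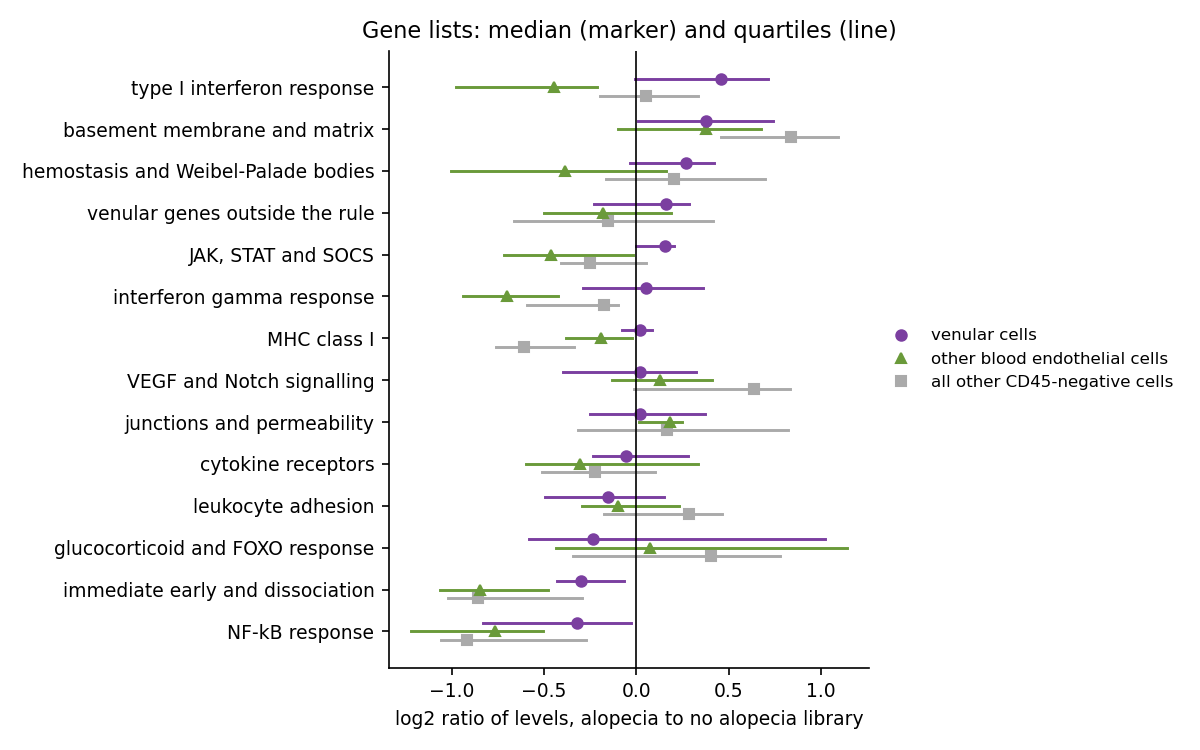
Median and quartiles of the log2 ratios with against without alopecia over the measured genes of 14 lists, in venular cells, other blood endothelial cells and all other kept CD45-negative cells. The type I interferon list is at 0.46 in venular cells and -0.45 in other blood endothelial cells, and the NF-kB list at -0.32 and -0.77.

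Against wild type, both UP_Del libraries were compared with the same 16 cells, so the 2 comparisons share their reference, each also shares a library with the comparison above, and they are given side by side without counting how often they match. With alopecia, 403 of 3323 measured genes (12.1%) were at least 2-fold higher than wild type and 96 (2.89%) lower. Without alopecia, 1043 of 6505 (16.0%) were higher and 353 (5.43%) lower. The all-gene median was 0.11 in both. The minimum of 20 UMIs over both sums lets in genes mainly through the larger UP_Del sums. At a summed count of 1, 1191 genes were higher and 4186 lower with alopecia, and 6414 were lower without. Which direction held more genes thus depended on the minimum. Ly6c2 was at 0 CPM in wild type, 478 CPM without alopecia and 155 CPM with alopecia, at least 17.5-fold and 5.69-fold higher. In the other kept CD45-negative cells Ly6c2 had 7 UMIs in wild type, 6017 without and 1277 with alopecia, and 3373 in the wild-type CD45-positive library, so its near absence held for the whole wild-type CD45-negative library. Ly6c1, a near-identical neighbour whose reads may be shared with it, was at 2755, 1257 and 1212 CPM, and Ly6a, another Ly6 gene, at 1682, 942 and 714 CPM. Depp1, a gene induced by FOXO factors and fasting, was at 209, 1236 and 1243 CPM, and 52.2% of its wild-type UMIs lay in 1 cell.

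The other genes that led with alopecia against wild type were Celf2, Mrpl17, Gsk3b and Akap12 on the higher side and Nr4a2, S100a6, Dusp2 and Sav1 on the lower. Mrpl17 and Gsk3b had 0 UMIs in wild type and 28 each with alopecia, which is at least 3.19-fold. Of the Akap12 UMIs with alopecia 65.3% lay in 1 cell. Nr4a2, an immediate early nuclear receptor gene, was at 118 against 409 CPM (-1.79). The others that led without alopecia against wild type were Lgals7, Krt15, Perp and Ly6d on the higher side, all keratinocyte genes, with 1, 1, 0 and 0 UMIs in wild type. In the cells without other markers they had 15, 11, 1 and 6 UMIs without alopecia. Among those on the lower side were Fgfr2 (239 against 818 CPM, -1.77), Fkbp5 (63.5 against 264 CPM, -2.05), Il31ra (2838 against 7266 CPM, -1.36), Lars2 (-1.25) and Camk1d (-1.10). In all other kept cells the last 3 had ratios of -1.28, -1.08 and -1.56, so these differences spanned the library.

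The JAK, STAT and SOCS genes, which relay and restrain cytokine signals, stood above the all-gene share with either UP_Del library against wild type. Both comparisons use the same wild-type cells, so they are not independent. With alopecia 9 of 15 were at least 1.5-fold higher and 1 lower, with a median of 0.88, where 24.8% and 10.6% of all genes were. Without alopecia 9 of 18 were higher and 1 lower, with a median of 0.67, where 26.8% and 13.7% of all genes were. Socs3, an inhibitor that STAT3 induces, was at 746 CPM in wild type, 1286 CPM without and 1451 CPM with alopecia. Jak2, a kinase of cytokine receptors, was at 209, 457 and 494 CPM, Socs2 at 136, 254 and 286 CPM, and Cish, a STAT5 target, at 18.2, 56.1 and 55.9 CPM from 2, 61 and 18 UMIs. The wild-type values came from 82, 23, 15 and 2 UMIs. With the stricter removal of cells with mural, fibroblast or leukocyte UMIs the medians were 0.25 and 0.30. In the other blood endothelial cells they were -0.19 and 0.10. With against without alopecia the venular list had a median of 0.16, with 1 of 20 higher and none lower.

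Keratinocyte markers had the medians farthest above 0 against wild type among lists with at least 5 measured genes, at 2.27 with alopecia (6 of 6 higher) and 2.45 without (10 of 11 higher), and 2.42 and 2.22 in the other blood endothelial cells. Their part in the other values was tested only by leaving out the cells that carried them or other markers, which gave the JAK, STAT and SOCS list 0.47 with and 0.62 without alopecia. For the counts that follow, 24.8% of all genes were higher and 10.6% lower with alopecia, and 26.8% and 13.7% without. The all-gene median was 0.11 in both. Interferon gamma response genes had medians of 0.54 with alopecia (10 of 20 higher, 1 lower) and 0.28 without (8 of 25 and 1), and Gbp4 was at 63.7, 111 and 180 CPM in wild type, without and with alopecia. Type I interferon genes had medians of 0.38 (4 of 14 higher, 1 lower) and 0.19 (6 of 16 and none), and MHC class I genes 0.34 (4 of 17 and none) and 0.28 (4 of 18 and none). The type I interferon count of higher genes with alopecia and both MHC class I counts of higher genes were near the share of all genes. NF-kB genes had medians of 0.06 (6 of 18 higher, 3 lower) and 0.32 (7 of 21 and 1), and immediate early genes -0.07 (4 of 28 and 4) and 0.32 (10 of 30 and 3). Venular genes outside the rule had medians of -0.09 (2 of 19 higher, 2 lower) and -0.10 (2 of 22 and 3).

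Within a library, cells with a Sele UMI differed from cells without in a way that did not depend on comparing libraries. The split uses a marker gene and depth differs (a median of 5730 against 4274 UMIs without alopecia), so it is a description of how the cells vary. Without alopecia 149 cells had Sele and 33 had not, and 17 of 21 NF-kB response genes were at least 1.5-fold higher in the former and none lower, with a median of 0.97, where 23.9% of all genes were higher and 17.5% lower. With alopecia 31 and 8 cells gave 12 of 16 higher and 1 lower, with a median of 1.47, where 30.4% of all genes were higher and 17.9% lower. Markers of other cells and immediate early genes moved with this split too. Keratinocyte markers were higher in the Sele cells in 10 of 11 (median 3.18) without and 6 of 6 (2.10) with alopecia, and fibroblast markers lower in 6 of 6 (-4.80) without alopecia. Immediate early and dissociation genes were higher in 16 of 30 (0.64) and 14 of 26 (0.69), and their part in the NF-kB values was not tested. Without the cells that carried other markers, NF-kB genes were higher in 18 of 21 (1.43) without and 11 of 15 (1.24) with alopecia, where 25.8% and 29.1% of all genes were, the latter with 28 cells against 4. Chemokine genes were higher in 7 of 8 and 4 of 5, with 97.3% of the Ccl2 UMIs without alopecia in 1 cell, and JAK, STAT and SOCS genes in 7 of 18, with 4 lower, and 7 of 10, with 1 lower. Nfkbia was at 5730 against 1980 CPM without alopecia and 4811 against 1379 CPM with alopecia. Csf3 was at 1868 against 206 CPM and 737 against 0 CPM, and Il6 at 982 against 212 CPM and 854 against 0 CPM. Socs3 was at 1417 against 445 CPM and 1716 against 227 CPM. Vwf went the other way or stayed level, at 647 against 1028 CPM and 797 against 890.3 CPM. In both libraries Csf3 and Il6 thus lay mainly in the Sele-carrying cells.

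The split by Ackr1 gave another set of genes. Without alopecia 131 cells had Ackr1 and 51 had not, and 14 of 22 venular genes outside the rule were higher in the former and none lower, where 19.4% of all genes were higher. With alopecia, 31 and 8 cells gave 10 of 19 higher and 1 lower, where 25.3% of all genes were higher and 18.1% lower. Keratinocyte markers were lower in the Ackr1 cells in 11 of 11 (median -2.34) without and 6 of 6 (-2.85) with alopecia, and fibroblast markers higher in 6 of 6 (5.45) without alopecia. Immediate early genes were lower in 15 of 26 (-0.63) with alopecia and in 2 of 30 (0.13) without. Without the cells that carried other markers, 11 of 21 and 8 of 19 venular genes were higher, where 20.1% and 26.7% of all genes were. Lrg1 was at 1907 against 682 CPM and 2303 against 975 CPM, and Lbp at 418 against 62.3 CPM and 352 against 110 CPM. Nr2f2 was at 311 against 95.1 CPM without alopecia and 283 against 283 CPM with alopecia. Type I interferon genes were lower in the Ackr1 cells without alopecia in 8 of 15, where 11.9% of all genes were, Isg15 being at 159 against 492 CPM. With alopecia 4 of 11 were higher and 1 lower.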

How the data were processed

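The authors deposited, for each barcode called as a cell, unnormalized UMI counts by gene, from Cell Ranger 7.1.0 with build mm10 per the submitters' processing notes. They are whole numbers over 32285 genes. The annotation release and any doublet removal by the authors are not given in the sources used here, and no doublets were removed here. Coordinates were matched by gene identifier to GENCODE vM21 (32158 identifiers).

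UMIs were summed over the venular cells of a library and given per 1000000 UMIs. Levels have exact Poisson intervals, ratios exact conditional binomial intervals and shares Clopper-Pearson intervals. For a gene with 0 UMIs on one side, the floor was 3 counts. Ratios needed 20 or more UMIs over both sides. Genes were named from those with at least 50 CPM and UMIs in at least 10 cells of the higher library, ranked by the interval bound nearer to 1, 10 each way for alopecia against no alopecia, 6 against wild type, and 12 for venular against other endothelial cells. Genes of T-cell receptors, immunoglobulins, hemoglobins, ribosomal proteins and mitochondria, sex-linked markers and unnamed genes were left out, as were genes under 5% of their CPM in mural, fibroblast or keratinocyte cells. Other genes are list members or always examined. A gene that the rule selects is not reported here. The cells and lists were chosen with earlier results of these data known. Ratios were tested on simulated data. Alternatives changed the cell filters, the rule, the scaling, the count minimum and the doublet treatment. The work used Python 3.11.15, numpy 2.4.6, scipy 1.17.1, pandas 2.3.3, scanpy 1.11.5 and matplotlib 3.10.9.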

Additional observations from a re-analysis of the deposited data

Results flagged for a closer look

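The lists in this part are examples of lists whose median log2 ratio between 2 libraries had opposite signs in venular and in other blood endothelial cells. Further lists had opposite signs too. With against without alopecia, JAK, STAT and SOCS genes had 0.16 and -0.46, and interferon gamma response genes 0.05 and -0.70. With alopecia against wild type, JAK, STAT and SOCS genes had 0.88 and -0.19. The differences themselves were not tested, since there is 1 library per group. Type I interferon response genes had a median of 0.46 in venular cells and -0.45 in other blood endothelial cells with against without alopecia. Genes of hemostasis and Weibel-Palade bodies had 0.27 and -0.39 in the same comparison. Without alopecia against wild type the hemostasis list had -0.30 and 0.27, and the capillary list 0.26 and -0.94. The venular median of the type I interferon list was -0.16 with cells of mural, fibroblast or leukocyte UMIs left out. That of the capillary list was -0.17 with those cells left out and -0.0169 at a summed count of 1, so neither kept its sign.

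Cells that met the venular rule were also found in the CD45-positive libraries, which no comparison used. They were 15 of 9206 kept cells with alopecia, 7 of 6487 in wild type and 2 of 3278 without alopecia. Their Selp UMIs numbered 332, 90 and 100, and Ptprc, which encodes CD45, had a UMI in 2, 2 and 1 of them.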

How the results depend on the processing

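The shares of venular cells gave 6 ratios and 66 alternative values, all in the same direction and inside the counting interval of the reported ratio, with a log2 range of -1.31 to -0.90 (share of blood endothelial cells, with against without alopecia) and 1.65 to 1.80 (without alopecia against wild type). Of 512 alternative list medians 494 stayed within the quartiles of the list's genes, of 98 counts of genes 85 stayed within 1.5 times, and of 611 values of named genes 533 were within the reported interval and 7 had the other sign. The cause of these changes was not tested. With cells of mural, fibroblast or leukocyte UMIs left out, Akap12 with alopecia against wild type was -0.55, Celf2 with against without alopecia -0.17, VEGF and Notch genes -0.42 and type I interferon genes -0.16. With the same cells left out, venular genes outside the rule were -0.42 with alopecia against wild type, and 172 genes were at least 2-fold higher there. Without alopecia against wild type, leaving these cells out gave MHC class I 0.50, capillary genes -0.17 and hemostasis -0.64. With cells of fibroblast, keratinocyte, leukocyte or mural UMIs left out and Tagln not counted, an alternative chosen after seeing the data, the values with against without alopecia were Celf2 -0.0756, Sdc4 1.28, JAK, STAT and SOCS 0.20, chemokines 0.72 and hemostasis 0.52, and those with alopecia against wild type MHC class I 0.44, type I interferon 0.81 and 63 genes lower. Celf2 was also -0.37 at 3 or more marker UMIs, -0.45 at 4 or more UMIs of the endothelial genes of the rule and -0.23 with the rule after thinning to 1500 UMIs, which gave JAK, STAT and SOCS 0.21 and basement membrane -0.0754. With a mean over cells, MHC class I was -0.0897 with against without alopecia, 0.19 with alopecia against wild type and 0.19 without. With the highest doublet scores removed, chemokines were 0.55. The count minimum set the numbers of genes past 2-fold and which direction held more of them. At a summed count of 1, which enters genes at the floor, they were 4186 higher and 930 lower with against without alopecia, 1191 and 4186 with alopecia against wild type, and 6414 lower without alopecia against wild type, and the capillary median there was -0.0169. At 50 they were 77 and 136, 63 and 14, and 441 and 90. With other blood endothelial cells limited to 3 or more UMIs of the 15 general endothelial genes outside the rule, 80 genes were higher and 168 lower in venular cells. Lgals7, Perp and Ly6d had no value without alopecia against wild type where the cells left out held their UMIs. Leaving out replicates was not possible with 1 library per group. No paired analysis was possible because each group has 1 CD45-negative library and no replicate numbers. Depth limits the wild-type values most, with 16 cells and 109963 UMIs.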
